A study of Homo sapiens with 18 samples.

Results

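The Hedgehog pathway was followed through 10 of its genes: the ligand SHH, the receptor and decoy PTCH1 and HHIP, the co-receptors GAS1, BOC and CDON, the transducer SMO, and the transcription factors GLI1, GLI2 and GLI3. These genes were picked by name as the core of the pathway, out of 19775 genes measured. The choice was made with earlier results of these data known. A total of 28 probe sets named one of these genes alone; for each gene the one with the highest mean over the 18 arrays was used, and the other 18 are described after it. RNA came from H9, a human embryonic stem cell line grown for research, so every group is the same cell line. The labels name no engineered allele. The groups, with 3 RNA pools each, were undifferentiated ES cells, embryoid bodies at day 6, neuroepithelial cells at day 10 and neuroepithelial cells at day 17. At days 10 and 17 there was a group given basic fibroblast growth factor (bFGF) from day 6 on and a group without it. The labels write the dose as 20 ug/ml in the day 10 group and 20 ng/ml in the day 17 group, and which unit is right at day 10 is not resolved. The ES and day 6 pools joined several cell passages, and the number of cultures in a neuroepithelial pool is not given in the sources used here. Day 6 pools 1 and 2 share the same passages (27, 28 and 31), which are also those of ES pool 1. ES pool 2 joined passages 24, 25 and 26, so that ES and day 6 pool 2 share a number but no passage. Hence p-values measure the spread between these pools, which may be partly technical.

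In Hedgehog signalling a secreted ligand binds Patched, which otherwise holds Smoothened inactive; freed Smoothened acts at the primary cilium and turns GLI proteins from repressors into activators of transcription. PTCH1, HHIP and GLI1 are themselves common targets of active signalling, and GLI3 acts mostly as a repressor. In the developing neural tube the notochord and floor plate release Sonic hedgehog, which patterns the ventral side, while GLI3 is associated with dorsal and anterior identity and with the dorsal telencephalon.

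A stretch upstream of PTCH1 and another upstream of HHIP are shown because these 2 genes, both common targets of the pathway, were called lower at day 10. Of the 5 windows of PTCH1, the one shown was picked because it holds the motif given below. GLI1, another such target, has no window in the table used. GLI proteins recognise GACCACCCA, read on the other strand as TGGGTGGTC. Both strands were searched in RefSeq's promoter windows (GRCh38.p14), whose first 250 bases, the stretch shown, lie before each transcription start. Of the 10 genes, 8 had windows, 16 in all, and 1 window held the motif. It was found in 83 of all 35116 windows, or 0.236%. The match lies before 1 of the 5 starts of PTCH1, on the minus strand in the window chr9:95509267-95509516, at 172 to 164 bases before that start; this start lies downstream of the outermost start of the gene, inside its longest transcripts. The HHIP window is chr4:144645906-144646155 on the plus strand and holds no exact match. A match describes these letters and does not show a binding site, and its absence says only that the letters are not in the window. Capitals mark the motif.
PTCH1: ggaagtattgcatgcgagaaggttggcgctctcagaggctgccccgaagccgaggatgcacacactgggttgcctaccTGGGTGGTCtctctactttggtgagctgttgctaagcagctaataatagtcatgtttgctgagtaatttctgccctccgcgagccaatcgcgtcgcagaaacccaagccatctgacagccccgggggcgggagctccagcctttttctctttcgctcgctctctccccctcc
HHIP: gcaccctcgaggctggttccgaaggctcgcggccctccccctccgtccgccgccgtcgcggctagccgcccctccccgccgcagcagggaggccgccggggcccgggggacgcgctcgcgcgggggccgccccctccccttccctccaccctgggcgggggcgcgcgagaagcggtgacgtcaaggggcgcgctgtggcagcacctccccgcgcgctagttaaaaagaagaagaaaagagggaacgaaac

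Stage markers changed along the labelled stages, though not all alike. NANOG, a pluripotency factor, averaged 291 ± 69.2 in day 6 embryoid bodies against 3203 ± 382 in ES cells (SD, n = 3 each), while the forebrain factor SIX3 averaged 2136 ± 121 at day 6 against 58.1 ± 53.1 in ES cells. SOX1, of early neuroepithelium, averaged 56.2 ± 6.15 at day 6, 566 ± 83.5 with bFGF and 612 ± 184 without it at day 10. Of 7 measured pluripotency genes 3 were called lower at day 6 and 4 were not, where 1.66% of all genes were called lower. Their summed signals were 22109 to 23300 at day 6 against 31159 to 32910 in ES cells. LIN28A, of the same list, still averaged 8210 ± 949 at day 10 and 3317 ± 1041 at day 17 without bFGF. Values are deposited array signals, which share a common trimmed mean; levels of different genes are not compared, because each probe set has its own brightness. The 4 neuroepithelial arrays of pool 2 had raised low signals, with array medians of 48.7 to 50.8 against 25.2 to 32.7 on the other 14 arrays. The ratio of 3' to 5' signal of ACTB, a check of RNA integrity and labelling, was 2.27 to 2.64 on the 6 arrays of pool 2 and 1.17 to 1.75 on the other 12. The same ratio of GAPDH was 0.876 to 1.24 over all 18 arrays and lowest in pool 2 of every group. Leaving out the 4 neuroepithelial arrays of pool 2 left every call on the 10 genes as it was.

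Across the 6 groups the 10 genes did not move as one block. GLI3, GAS1, BOC, CDON and SMO were lowest in ES cells and higher in all later groups. PTCH1 had its highest mean at day 6, HHIP and GLI1 had theirs in ES cells and day 6 embryoid bodies, and GLI2 and SHH passed no test. A moderated F test over the 6 groups (limma, Benjamini-Hochberg adjusted over all genes) passed for 8 of the 10, where 19.3% of all genes passed; SHH (adjusted p = 0.961) and GLI2 (adjusted p = 0.947) did not. Because these are bulk RNA pools, fewer cells of a type and less RNA per cell cannot be told apart at any of the results that follow.

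**Figure D1:**
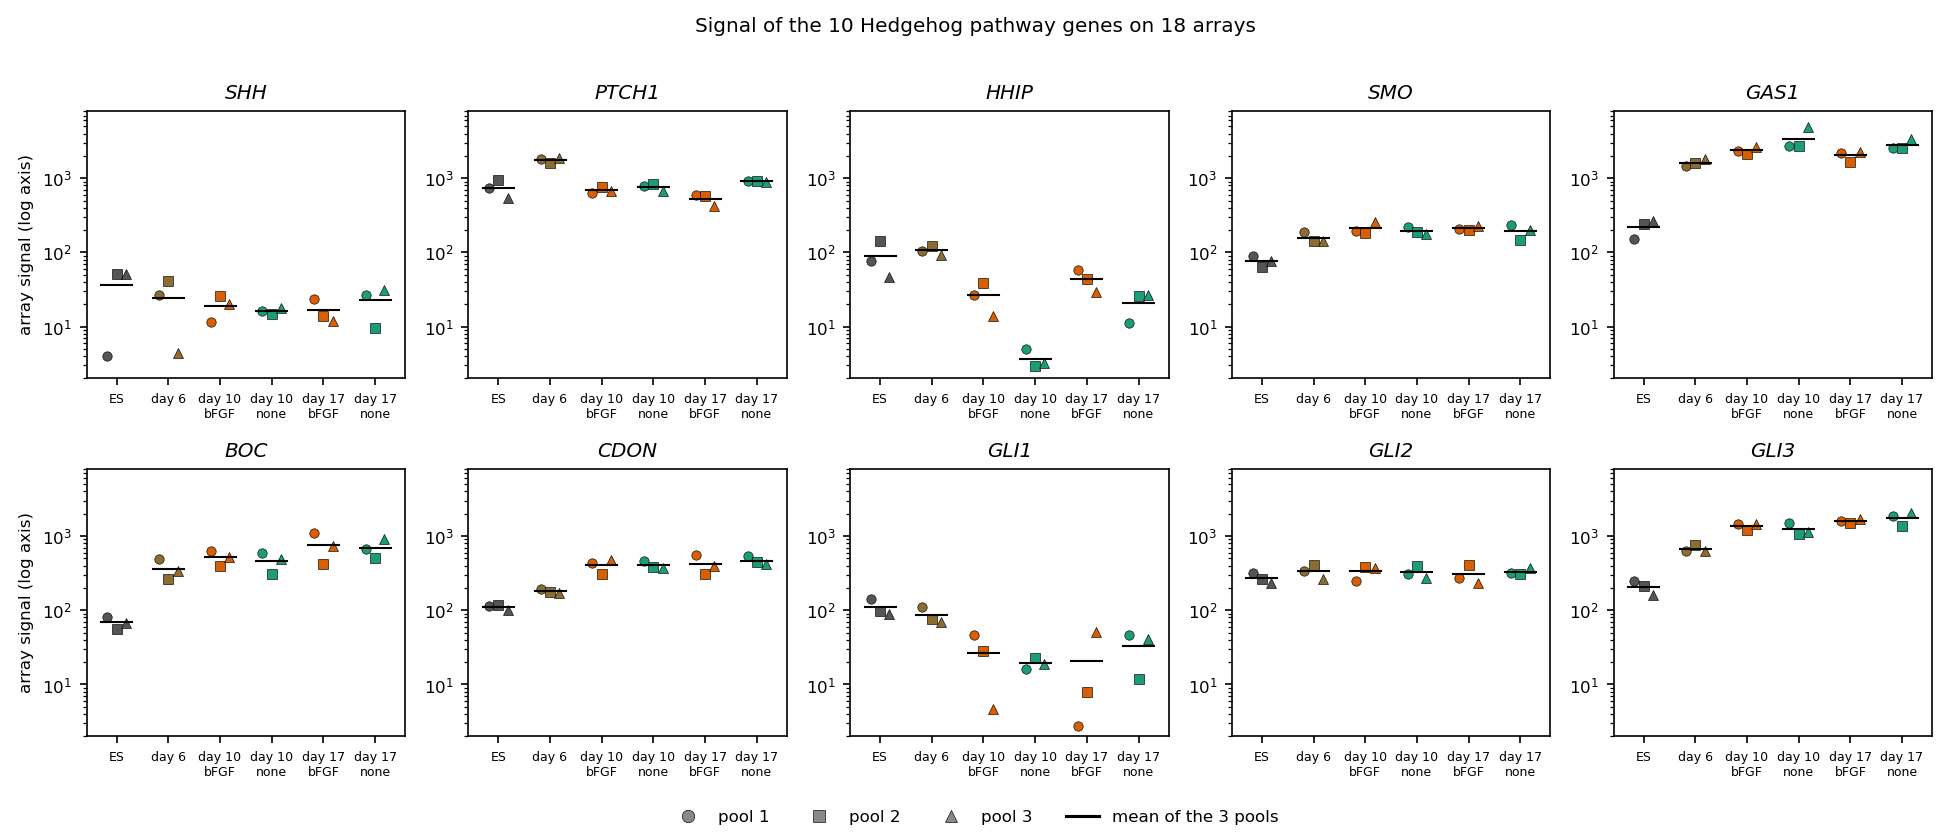
Signal (log axis) of the 10 genes in each of 3 pools (points) of the 6 groups, with the group mean; bFGF groups stand to the left of the untreated group of the same day. GLI3, GAS1, BOC, CDON and SMO have all 3 ES pools below all later pools, while PTCH1 stands highest at day 6.

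SHH encodes the ligand. Its signals were 4.06, 51.6 and 51.9 in the ES pools and 26.3, 41.7 and 4.41 in the day 6 pools. They were 11.4, 25.8 and 19.9 with bFGF and 16.4, 14.7 and 17.7 without it at day 10. At day 17 they were 23.7, 14.0 and 11.9 with bFGF and 26.97, 9.44 and 31.5 without it. The pools of every group overlapped those of every neighbouring group in the order of means. The 18 values, 4.06 to 51.9, lie about the median signals of whole arrays, 25.2 to 50.8, and no detection calls were used to say which of them exceed background. No comparison passed, and the log2 changes between consecutive groups were smaller than their standard error of 0.43 (limma), for example -0.30 at day 6 against ES cells (adjusted p = 0.917).

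PTCH1, the receptor that restrains Smoothened and a feedback target of the pathway, was higher at day 6 than in any other group. Its signals were 745, 948 and 544 in the ES pools and 1833, 1590 and 1858 in the day 6 pools. At day 10 they were 637, 758 and 681 with bFGF and 779, 846 and 679 without it. At day 17 they were 585, 569 and 419 with bFGF and 929, 904 and 898 without it. All 3 day 6 pools lay above the other 15 arrays, and at day 17 all bFGF pools lay below all untreated pools. On the log2(signal + 16) scale, on which all changes here are given, PTCH1 was higher at day 6 than in ES cells by 1.25 ± 0.21 (SE, adjusted p = 0.00149, limma). At day 10 with bFGF it fell by 1.33 ± 0.21 relative to day 6 (adjusted p = 0.000562), and without bFGF by 1.18 ± 0.21 (adjusted p = 0.00157). These 3 calls rest on 1 probe set: averaged with the 4 dimmer probe sets of the gene, the changes were 0.41 (adjusted p = 0.515), -0.45 (adjusted p = 0.298) and -0.45 (adjusted p = 0.308).

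HHIP binds Hedgehog ligands at the cell surface and holds them back. Its signals were 75.6, 142 and 46.7 in the ES pools and 103, 123 and 93.2 at day 6, and these groups overlapped. At day 10 they were 26.99, 38.9 and 13.9 with bFGF and 4.98, 2.90 and 3.21 without it. At day 17 they were 58.4, 43.4 and 29.6 with bFGF and 11.1, 25.4 and 26.5 without it. All 6 day 10 pools lay below all day 6 pools, and on both days every bFGF pool lay above every untreated pool. The untreated pools stood at percentiles 3.62 to 17.8 of the signals on their arrays at day 10 and 27.5 to 45.1 at day 17. No detection calls were used, so which of these values exceed background is not known. HHIP fell by 1.56 ± 0.31 with bFGF relative to day 6 (adjusted p = 0.00434) and by 2.63 ± 0.31 without it (adjusted p = 5.15e-05). Both calls held when each array of the compared groups was left out in turn and under all 7 other settings, but the size moved with the setting. With a pseudocount of 1 the change was -2.07 with bFGF and -4.54 without it, and with a pseudocount of 64 it was -0.92 and -1.33. Averaged with the 3 dimmer probe sets of the gene it was -0.76 with bFGF and -1.03 without it. At day 17 without bFGF the signal was again above day 10, by 0.88 ± 0.31, which did not pass (adjusted p = 0.245).

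SMO, the transducer that Patched restrains, was lower in ES cells than at day 6, and no later step passed. Its signals were 189, 142 and 140 in the day 6 pools against 90.3, 63.6 and 75.5 in the ES pools, with no overlap. The day 6 increase was 0.90 ± 0.21 (adjusted p = 0.0189). This call was lost without day 6 pool 1 (adjusted p = 0.108), ES pool 2 (adjusted p = 0.0837) or ES pool 3 (adjusted p = 0.0561). From day 10 on the 12 pools ran between 145 and 255.

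GAS1 is a membrane-anchored co-receptor that helps cells respond to Sonic hedgehog. Its signals were 1459, 1583 and 1798 in the day 6 pools against 152, 242 and 261 in the ES pools, and the groups lay far apart. The increase of 2.83 ± 0.26 (adjusted p = 4.08e-06) was the largest of the 10 genes at that step. At day 10 the signals were 2355, 2125 and 2657 with bFGF and 2703, 2699 and 4826 without it, all above day 6. The difference from day 6 was 0.55 ± 0.26 with bFGF (adjusted p = 0.253) and 1.02 ± 0.26 without it (adjusted p = 0.0227). The untreated day 10 call was lost without day 6 pool 1 (adjusted p = 0.0917), day 6 pool 2 (adjusted p = 0.0724) or day 10 pool 3 (0.74, adjusted p = 0.108), and the mean over the gene's 3 probe sets lost both calls, at 1.37 for day 6 (adjusted p = 0.0778) and 0.61 for day 10 (adjusted p = 0.469). At day 17 the signals were 2219, 1638 and 2248 with bFGF and 2581, 2555 and 3394 without it, and the bFGF pools lay below the untreated ones on both days.

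BOC and CDON are related immunoglobulin-type co-receptors that bind Hedgehog ligands beside Patched. BOC had 494, 262 and 340 in the day 6 pools against 81.9, 56.3 and 68.2 in the ES pools, an increase of 2.13 ± 0.35 (adjusted p = 0.00134) with no overlap. From day 10 on BOC spread widely among pools, from 306 to 1103, and passed in no later comparison. Pool 2 gave the lowest value in all 6 groups.

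CDON was called at day 10 and not at day 6. It had 194, 175 and 171 in the day 6 pools against 113, 116 and 101 in the ES pools. The groups did not overlap, but the increase of 0.63 ± 0.22 did not pass (adjusted p = 0.166), and of the settings tried it passed only with the pool number as a block (adjusted p = 0.0487), a pairing that the passages do not bear out for pool 2. At day 10 CDON had 440, 305 and 481 with bFGF and 456, 383 and 374 without it, all above day 6, with increases over day 6 of 1.09 ± 0.22 with bFGF (adjusted p = 0.00480) and 1.10 ± 0.22 without it (adjusted p = 0.00521). The day 17 values of 565, 310 and 394 with bFGF and 533, 444 and 424 without it overlapped those of day 10.

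GLI1 is an activator whose own transcription is a common readout of Hedgehog signalling. Its signals were 143, 98.8 and 90.5 in the ES pools and 110, 76.4 and 69.4 at day 6. At day 10 they were 46.2, 27.98 and 4.60 with bFGF and 16.4, 22.7 and 19.0 without it. At day 17 they were 2.76, 7.83 and 50.6 with bFGF and 45.9, 11.8 and 41.0 without it. All 12 neuroepithelial pools lay below all 6 ES and day 6 pools. These 12 stood at percentiles 12.1 to 60.5 of the signals on their arrays. Without detection calls, which of them exceed background is not known. The F test over the groups passed (adjusted p = 0.00933), but the day 10 step alone did not, at -1.38 ± 0.45 with bFGF (adjusted p = 0.0831) and -1.50 ± 0.45 without it (adjusted p = 0.0608). That step lay close to the threshold: without bFGF it passed with a pseudocount of 64 (adjusted p = 0.0262), after quantile normalization (adjusted p = 0.0399), among the upper 60% of genes by signal (adjusted p = 0.0372) and with the pool block (adjusted p = 0.0463).

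GLI2, the main activator downstream of Smoothened, passed in no comparison. Over the 18 arrays its signals ran from 234 to 412, the highest group mean was 337 ± 74.6 at day 6 and the lowest 273 ± 45.6 in ES cells, and every group overlapped its neighbours in the order of means. The highest and lowest group means differed by 0.28 on the log2 scale.

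GLI3, whose protein is mostly processed to a repressor when signal is absent, was called higher at both early steps. Its signals were 252, 213 and 160 in the ES pools and 637, 767 and 626 at day 6. At day 10 they were 1456, 1204 and 1468 with bFGF and 1520, 1080 and 1120 without it. At day 17 they were 1602, 1484 and 1700 with bFGF and 1848, 1362 and 2017 without it. The ES, day 6 and neuroepithelial pools formed 3 ranges that did not overlap. GLI3 was higher at day 6 than in ES cells by 1.64 ± 0.21 (adjusted p = 0.000172). At day 10 it was higher than at day 6 by 1.01 ± 0.21 with bFGF (adjusted p = 0.00665) and by 0.85 ± 0.21 without it (adjusted p = 0.0230). The untreated day 10 call was lost without day 6 pool 1 (adjusted p = 0.0855), day 6 pool 3 (adjusted p = 0.0950) or day 10 pool 1 (0.69, adjusted p = 0.103), and both day 10 calls were lost for the mean over the 3 probe sets of the gene, at 0.69 each (adjusted p = 0.0521 with bFGF and 0.0587 without it).

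By stage, day 6 embryoid bodies against ES cells had 5 of the 10 genes higher (PTCH1, GLI3, GAS1, BOC and SMO) and 0 lower, where 2.19% of all genes were called higher and 1.66% lower. The median change was 0.77 for the 10 genes and -0.00 for all genes. For 6 of the 10 the day 6 pools lay wholly above the ES pools, as they did for 10.1% of all genes. The same step changed other cell type markers: of 8 neural crest markers 5 were called higher and 2 lower, with summed signals of 1450 to 1750 at day 6 against 571 to 1088 in ES cells. TFAP2A, which also marks surface ectoderm, had 670 ± 71.1 at day 6 against 35.0 ± 21.0 in ES cells. The crest markers of largest change, TFAP2A, TFAP2B and SNAI2, were all called higher, and the 2 called lower changed less. The summed signals include that of TFAP2A. SOX10, a defining marker of the crest but not among those of largest change, had 99.9 ± 19.1 at day 6 against 26.6 ± 13.1 in ES cells. The part of such cells in the changes above was not tested.

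With bFGF, day 10 cells against day 6 had GLI3 and CDON higher and PTCH1 and HHIP lower, 2 and 2 of the 10, where 4.29% of all genes were called higher and 2.76% lower. The median change was 0.19 for the 10 genes against 0.08 for all genes. Untreated day 10 cells against day 6 had GLI3, GAS1 and CDON higher and PTCH1 and HHIP lower, 3 and 2 of the 10, where 3.73% of all genes were called higher and 2.64% lower. The median change was 0.12 for the 10 genes against 0.09 for all genes. The pools lay wholly above day 6 for GLI3, GAS1 and CDON and wholly below for PTCH1, HHIP and GLI1, in both day 10 groups; of all genes 14.8% lay wholly above and 12.3% wholly below with bFGF, and 13.6% and 9.67% without it. Without day 6 pool 1 the untreated calls numbered 3 in place of 5, GLI3 and GAS1 being lost. Both day 10 groups were set against the same day 6 pools. After quantile normalization the median of all genes at these steps was -0.03 with bFGF and -0.02 without it, and the directions of these 5 genes were as before. The summed signal of 13 mesenchymal genes, a list that includes Hedgehog targets such as FOXF1, was 4987 to 7263 with bFGF and 3071 to 6519 without it at day 10, against 1272 to 1457 at day 6. In ES cells it was 2908 to 5103, which overlaps the untreated day 10 range; at day 6 against ES cells 1 of the 13 was called higher and 2 lower, COL1A1 with 327 ± 35.2 against 2866 ± 850 and COL1A2 with 360 ± 23.1 against 825 ± 177. At day 10 with bFGF 4 of the 13 were called higher and 0 lower, and without it 3 higher and 1 lower, among them the collagen COL1A1; FOXF1 itself had group means of at most 42.0. The part of such cells in the changes was not tested.

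**Figure D2:**
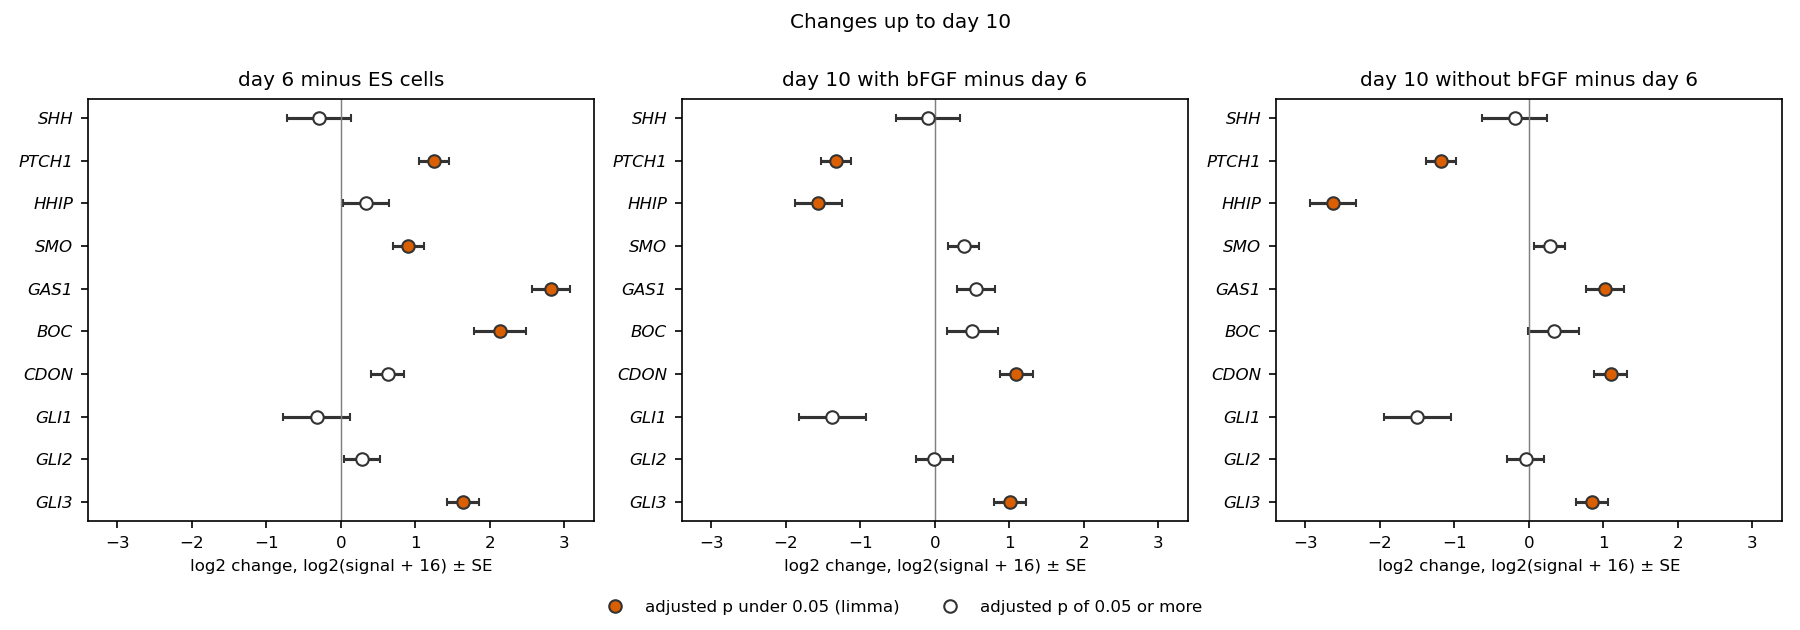
Log2 change ± SE of each gene at the steps in time, on the log2(signal + 16) scale; filled points passed the limma test at an adjusted p under 0.05. GAS1 has the largest day 6 increase at 2.83 and HHIP the largest day 10 decrease, -2.63 without bFGF.

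From day 10 to day 17 none of the 10 genes passed in limma's test, with bFGF (1.05% of all genes called) or without it (1.99%). At an unadjusted p under 0.05 there were 0 with bFGF, where 7.31% of all genes were, and 2 without it (HHIP and GLI3), where 9.76% of all genes were. Untreated PTCH1 and HHIP pools lay wholly above those of day 10, 2 of 10 genes against 7.29% of all genes. Under bFGF the PTCH1 pools lay wholly below and the GLI3 pools wholly above those of day 10, 1 of 10 genes each way against 5.98% and 6.06% of all genes. The changes of PTCH1 were -0.40 ± 0.21 with bFGF (adjusted p = 0.780) and 0.25 ± 0.21 without it (adjusted p = 0.838). With a pseudocount of 1 the untreated change of HHIP passed, at 2.16 (adjusted p = 0.0364).

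No member passed for bFGF against no bFGF on either day, where 0.086% of all genes were called at day 10 and 0.339% at day 17; the adjusted p of the 10 ran from 0.768 to 1 at day 10 and from 0.226 to 1 at day 17. The bFGF pools lay wholly above the untreated ones for HHIP and wholly below for GAS1 at day 10, where 3.14% and 2.97% of all genes did so. At day 17 they lay above for HHIP and below for PTCH1 and GAS1, where 3.96% and 5.07% of all genes did so. At an unadjusted p under 0.05, HHIP was higher at day 10, where 613 of all 19775 genes (3.1%) lay under it, and HHIP and PTCH1 differed at day 17, where 980 genes (4.96%) did. HHIP averaged 26.6 ± 12.5 with bFGF and 3.69 ± 1.12 without it at day 10, a change of 1.07 ± 0.31 (adjusted p = 0.768). At day 17 it averaged 43.8 ± 14.4 with bFGF and 21.0 ± 8.58 without it, a change of 0.69 ± 0.31 (adjusted p = 0.969). PTCH1 averaged 524 ± 91.3 with bFGF and 911 ± 16.4 without it at day 17, lower by a log2 difference of -0.79 ± 0.21 (adjusted p = 0.226); fitted with the pool block, the adjusted p was 0.0700. At day 17 these 2 feedback genes stood on opposite sides of the untreated pools, with no overlap in either: HHIP in 3 of 3 bFGF pools higher, PTCH1 in 3 of 3 lower. Each rests on 1 probe set. The other HHIP probe sets gave 0.29, -0.29 and 0.01 at day 10 and 0.09, 0.34 and 0.40 at day 17. Those of PTCH1 gave -0.39, -0.17, 0.34 and -0.10 at day 17. For GAS1 the other probe sets gave -0.18 and -0.12 at day 10 and 0.11 and -0.24 at day 17. None of the changes of these other probe sets passed (limma over all probe sets). Markers of other cell types moved in the same comparison: AFP, of yolk sac and liver, had 127 ± 13.7 with bFGF and 830 ± 169 without it (adjusted p = 0.00574), and PRRX1, of mesenchyme, had 325 ± 99.4 with bFGF and 57.8 ± 11.3 without it (adjusted p = 0.0129). Each was the 1 gene called of its list, of 11 and 13 measured. Their part in the values of the 10 genes was not tested.

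The test that averages the bFGF effect over both days, chosen after the data had been seen, gave HHIP 0.88 ± 0.22 (adjusted p = 0.156), PTCH1 -0.47 ± 0.15 (adjusted p = 0.422) and GAS1 -0.47 ± 0.18 (adjusted p = 0.780), where 0.329% of all genes were called. With the pool block HHIP passed (adjusted p = 0.0492), where 0.718% of all genes were called, and PTCH1 (adjusted p = 0.161) and GAS1 (adjusted p = 0.211) did not. The bFGF effect at day 17 minus that at day 10 passed for no gene (limma, 0 of 19775, with 631 at an unadjusted p under 0.05, and 1 each with the pool block and with a pseudocount of 64). GLI3, BOC, CDON and SMO overlapped between bFGF and untreated pools on both days.

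**Figure D3:**
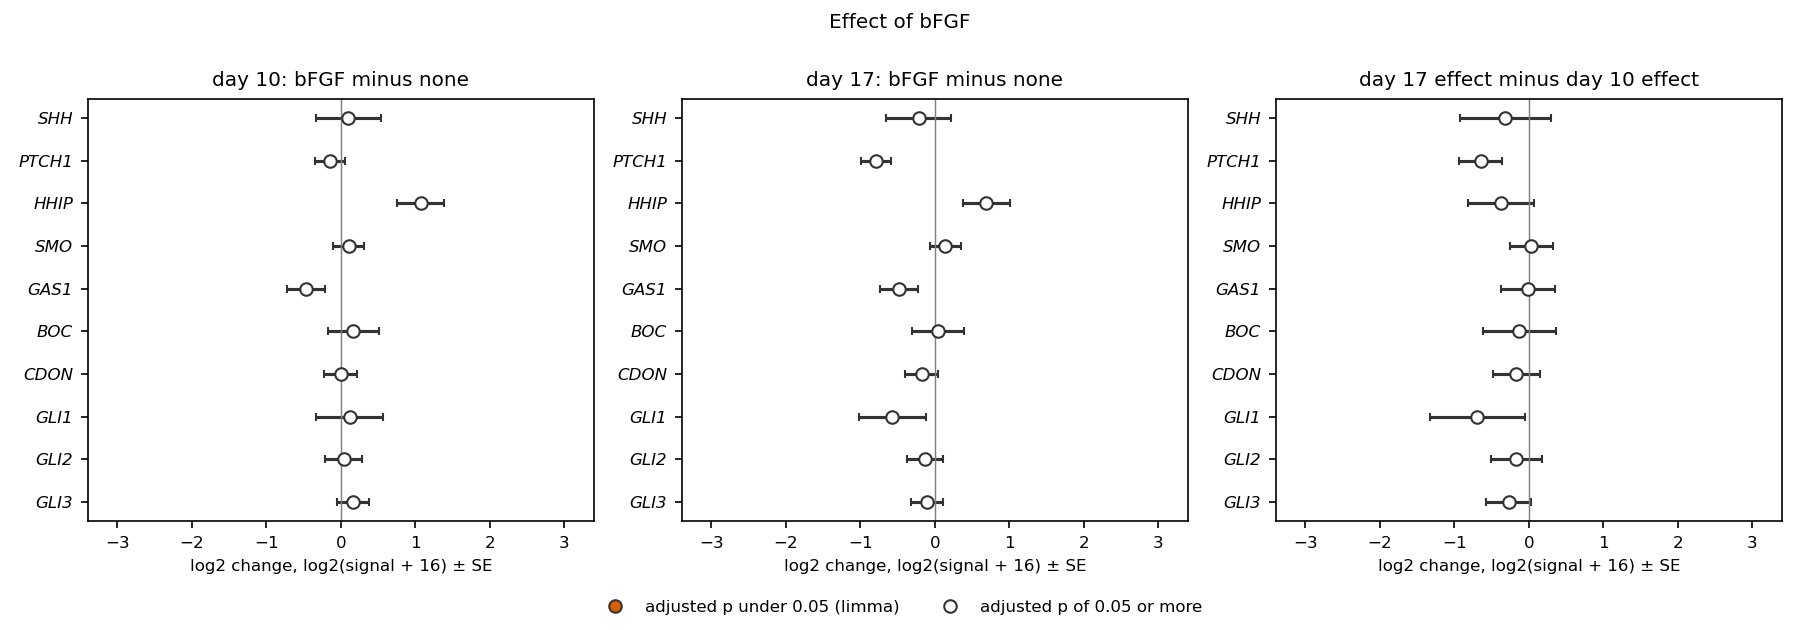
Log2 change ± SE for bFGF against no bFGF at day 10 and day 17, and the difference of these effects; no point is filled because no member passed the limma test. HHIP stands to the right at both days (1.07 and 0.69) and PTCH1 to the left at day 17 (-0.79).

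The other probe sets followed the used one closely for some genes and not for others. For GLI3 a second probe set averaged 134 in ES cells, 285 at day 6, 659 with bFGF and 600 without it at day 10, and 712 and 808 at day 17 with and without bFGF, with r = 0.919 to the used one over the 18 arrays. Its day 6 change of 0.99 (adjusted p = 0.318, limma over all probe sets) did not pass. Its day 10 changes, 1.11 with bFGF (adjusted p = 0.125) and 1.03 without it (adjusted p = 0.166), did not either. A second BOC probe set had r = 0.903 and was called at day 6 against ES cells, at 1.86 ± 0.35 (adjusted p = 0.00750, limma over all probe sets). A second CDON probe set had r = 0.865, with means of 6.76 in ES cells, 16.8 at day 6 and 44.3 at day 10 without bFGF. Its day 10 changes, 0.91 with bFGF (adjusted p = 0.118, limma over all probe sets) and 0.93 without it (adjusted p = 0.116), did not pass. These are descriptions: the probe sets share arrays and samples. A second PTCH1 probe set also had its highest mean at day 6, 109.9 ± 20.5, with r = 0.649, while the 3 dimmest had r of -0.246 to 0.215. The 3 other HHIP probe sets were dim and had r of 0.487 to 0.568, and none of their day 10 changes passed. A second GAS1 probe set had r = 0.623 and was lowest in pool 2 of each of the 6 groups. For GLI2 and SHH the other probe sets followed the used one weakly, with r = 0.316 and 0.287 for the 2 of GLI2 and 0.118 for the 1 of SHH. The third probe set had r = 0.709 for GLI3, 0.311 for CDON, 0.202 for BOC and 0.0555 for GAS1.

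**Figure D4:**
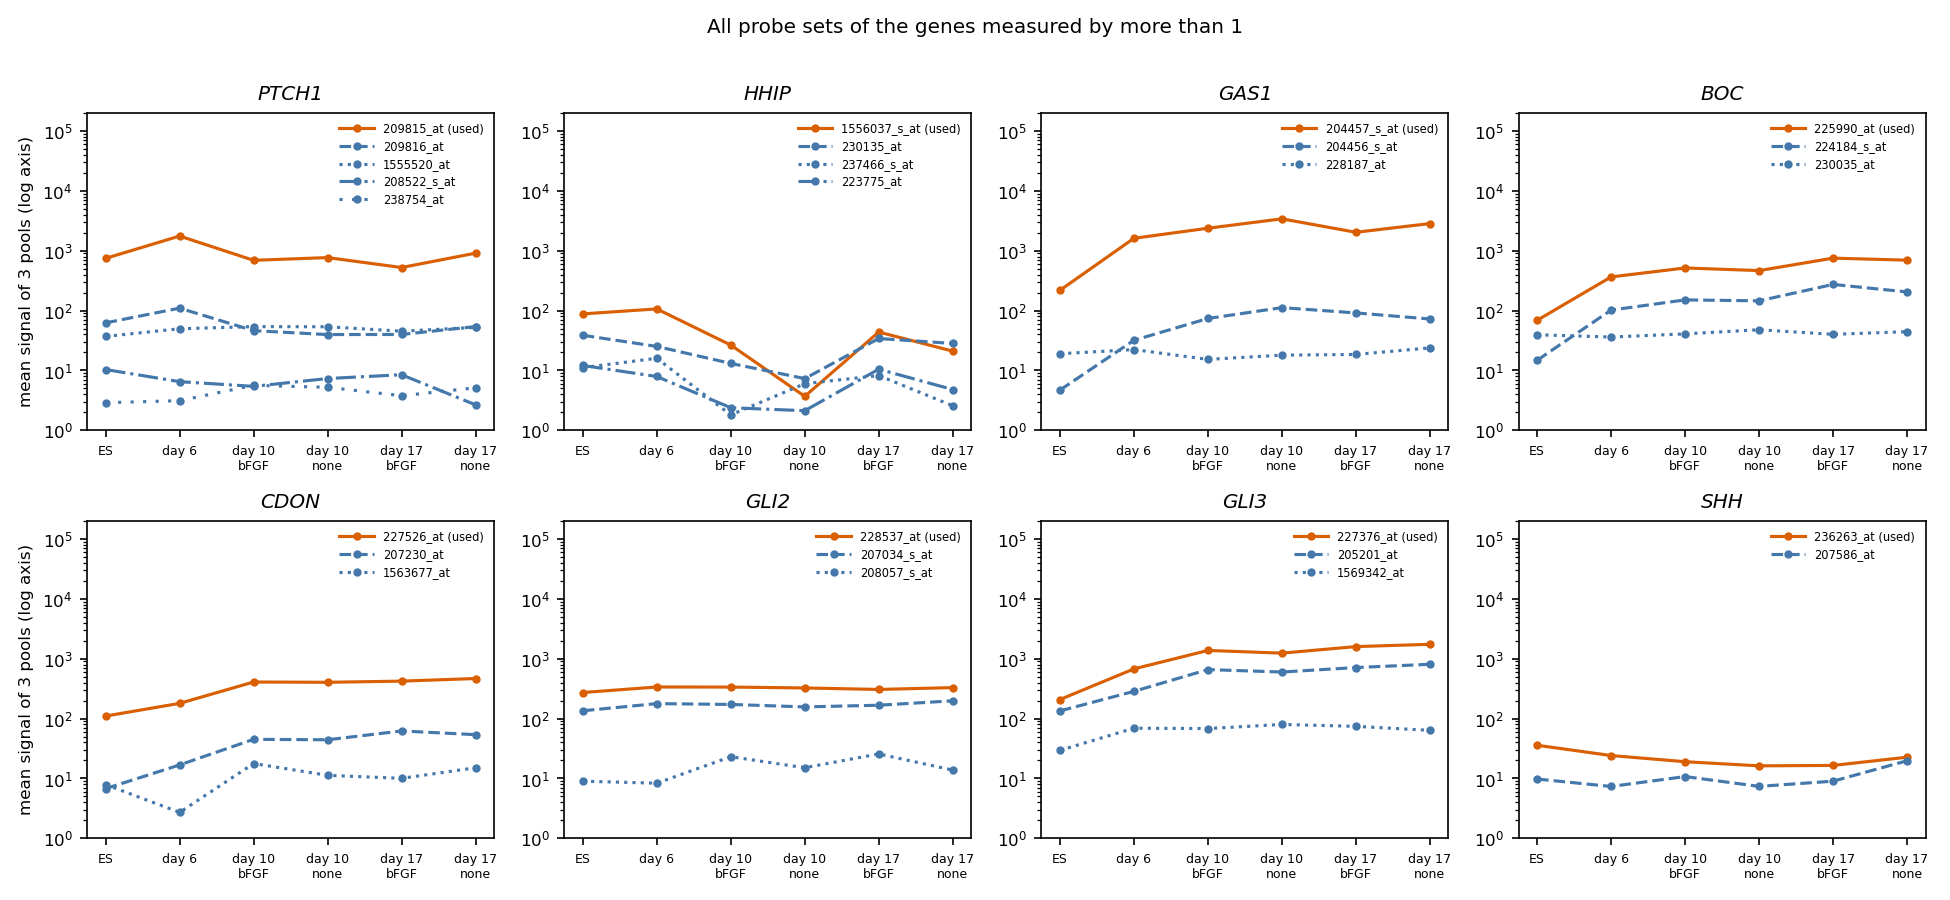
Mean signal of 3 pools (log axis) in each group for every probe set of the 8 genes with more than 1; the probe set used is solid orange and the others are broken blue lines. GLI3, BOC and CDON have a second probe set that climbs with the used one. Of these only that of BOC passed the limma test, at day 6 against ES cells. The remaining PTCH1 probe sets lie far below the used one.

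Among themselves, GLI3, GAS1, BOC, CDON and SMO had pairwise r of 0.850 to 0.941 over the 18 arrays, and PTCH1 and HHIP had r = 0.453. These values describe arrays that fall in 6 groups and share the stages. For members whose group means span at least 2 log2 units, the most similar profiles among 8177 genes with a mean log2 of at least 7 (8176 where the member itself is among them) were as follows. GLI3 was closest to SORBS2 (r = 0.980), ASXL1 (0.979) and PALLD (0.977). GAS1 was closest to LIX1 (0.987), DLK1 (0.985) and CADM1 (0.980). BOC was closest to TSPAN11 (0.962), LRRC4 (0.957) and PEG10 (0.954). HHIP was closest to CACHD1 (0.882), RCAN3 (0.872) and CFAP298 (0.860), and GLI1 to PWP2 (0.895), RCC1 (0.850) and NME3 (0.848).

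The wider pathway list held 29 further genes, of which 28 were measured. At day 6 against ES cells 6 were higher and 0 lower, where 2.19% of all genes were higher and 1.66% lower; the median change was 0.38, against -0.00 for all genes. Among them were HHAT, which attaches palmitate to the ligand (47.3 ± 10.2 against 2.83 ± 0.18), LRP2, an endocytic receptor that takes up SHH (193 ± 41.3 against 30.5 ± 7.87), and GPR161, a ciliary receptor that restrains the pathway (222 ± 5.13 against 63.2 ± 29.3). At day 10 against day 6, with and without bFGF alike, SCUBE1, SCUBE3, LRP2 and GPC6 were higher and GPC4 lower, 4 and 1 of the 28; of all genes 4.29% were higher and 2.76% lower with bFGF, and 3.73% and 2.64% without it. The median was 0.24 for the 28 against 0.08 for all genes with bFGF, and 0.18 against 0.09 without it. SCUBE1, of a family of secreted proteins that help release the ligand, had 355 ± 73.9 with bFGF and 295 ± 127 without it at day 10, against 37.1 ± 39.6 at day 6. LRP2 had 817 ± 72.6 with bFGF and 910 ± 136 without it at day 10, against 193 ± 41.3 at day 6. At day 17 against day 10, GPC4 was higher (2606 ± 149 against 1029 ± 263) and GPC3, a glypican that competes with Patched for ligand, lower (1106 ± 450 against 3639 ± 706) without bFGF; with bFGF LRP2 was lower (386 ± 83.2 against 817 ± 72.6). These are 1 of 28 with bFGF, where 1.05% of all genes were called, and 2 of 28 without it, where 1.99% were. None of the 28 passed for bFGF against none, where 0.086% of all genes were called at day 10 and 0.339% at day 17. Of 19 measured genes of the primary cilium 0 passed in any of the 8 comparisons, which called from 0% to 7.05% of all genes.

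Of 10 measured genes of the ventral neural tube, which Sonic hedgehog patterns, 0 passed before day 17. Of all genes 3.85% were called at day 6 against ES cells. At day 10 against day 6, 7.05% of all genes were called with bFGF and 6.37% without it. At day 17 NKX2-1, of the ventral forebrain, averaged 65.4 ± 12.5 with bFGF against 3.79 ± 4.76 at day 10 with bFGF (2.05, adjusted p = 0.00117). Without bFGF it averaged 130 ± 64.7 at day 17 against 2.49 ± 0.56 at day 10 (2.88, adjusted p = 2.59e-05). OLIG1, of the oligodendrocyte lineage, was called too: 68.0 ± 27.8 against 13.9 ± 7.92 with bFGF (1.47, adjusted p = 0.0418) and 83.4 ± 15.9 against 15.2 ± 13.8 without it (1.77, adjusted p = 0.00884). These are 2 of 10 in each arm, where 1.05% of all genes were called with bFGF and 1.99% without it. The other 8 did not pass; among them the floor plate factor FOXA2 had group means of at most 29.9 and NKX2-2 of at most 7.62. These 2 are named after their values were seen. SHH was not called at this step, and PTCH1 and GLI1 were not either. A second list, of 11 measured ventral forebrain genes that also holds NKX2-1, had calls from day 6 on. At day 6 against ES cells 3 of 11 were higher: DLX5 (223 ± 3.57 against 11.4 ± 6.31), SIX6 and DLX6. In the same step 0 were lower, where 2.19% of all genes were called higher and 1.66% lower. At day 10 against day 6, 3 were higher with bFGF (SIX6, DLX1 and DLX2), and 1 was higher (SIX6) and 2 lower (DLX5 and LHX8) without it. Of all genes 4.29% were higher and 2.76% lower with bFGF, and 3.73% and 2.64% without it. At day 17 against day 10, 1 was higher with bFGF and 5 without it; without bFGF DLX1 had 719 ± 267 against 25.6 ± 10.1 and DLX2 776 ± 86.2 against 45.5 ± 41.5. No gene of this list passed for the difference between the arms.

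Dorsal genes were called at the same day 17 step, 2 of 15 measured in each arm, EMX2 and ZIC1. Of all genes 1.05% were called at that step with bFGF and 1.99% without it. EMX2, of the dorsal forebrain, had 1500 ± 462 against 234 ± 36.6 with bFGF and 1290 ± 311 against 150 ± 102 without it. ZIC1, of the dorsal neural tube, had 8042 ± 987 against 1370 ± 873 with bFGF and 4753 ± 1299 against 1189 ± 751 without it. Markers of other cell types moved there too. Of 9 neuronal markers 4 were higher in each arm, with summed signals of 8628 to 12791 at day 17 against 4852 to 7569 at day 10 with bFGF, and of 13304 to 15112 against 5094 to 8703 without it. Without bFGF AFP had 830 ± 169 against 96.0 ± 81.6 and TTR 389 ± 245 against 22.7 ± 15.1, 2 of 11 endoderm and notochord genes; with bFGF 0 of the 11 were called. The part of such cells in the changes at day 17 was not tested. Of the 15 dorsal genes, PAX7 passed for bFGF at day 17, with 149 ± 56.1 with bFGF and 31.5 ± 8.32 without it (1.77, adjusted p = 0.0135). In that comparison 0.339% of all genes were called. The dorsal list also had calls before day 17. At day 6 against ES cells 4 of the 15, EMX2 among them, were higher and 0 lower, where 2.19% and 1.66% of all genes were. At day 10 against day 6 with bFGF 3 were higher and 0 lower, where 4.29% and 2.76% of all genes were. Without bFGF 1 was higher (ZIC1) and 1 lower (MSX2), where 3.73% and 2.64% of all genes were.

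**Figure D5:**
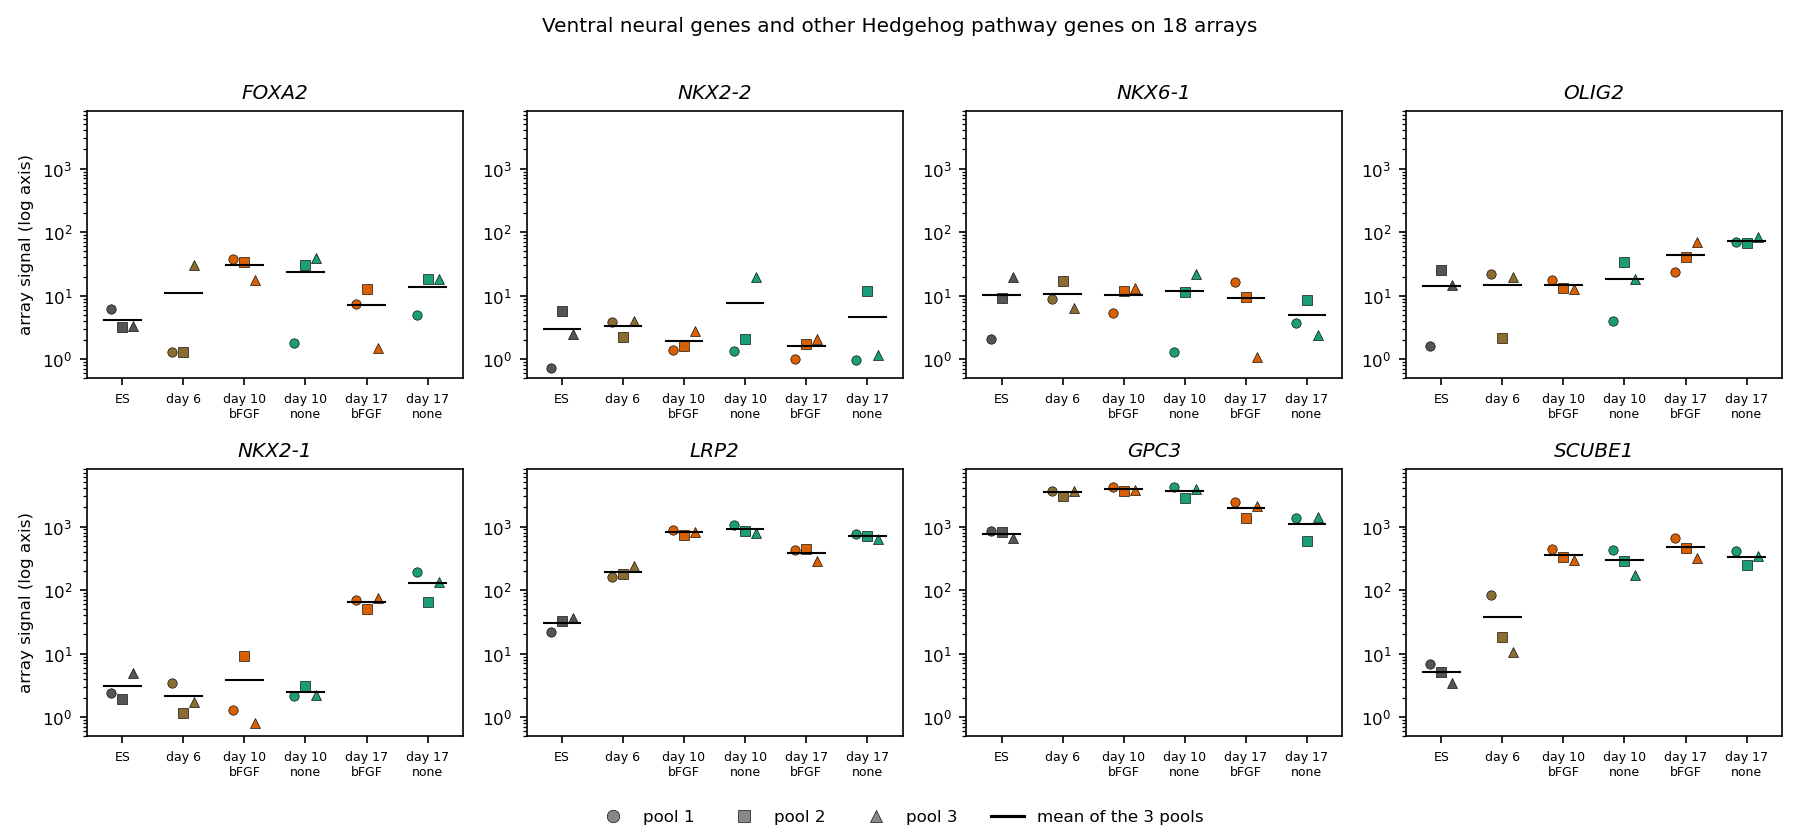
Signal (log axis) in each of 3 pools (symbols) of the 6 groups, with the mean as a bar, for 5 ventral neural genes and 3 further pathway genes; bFGF groups are orange and stand to the left of the untreated group of the same day. NKX2-1 lies at 51.2 to 194 in all 6 day 17 pools and below 10 in the other 12, while FOXA2, NKX2-2 and NKX6-1 show no such step.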

How the data were processed

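RNA pools of H9 cells were measured on 1-colour arrays with 54675 probe sets, 18 arrays in 6 groups of 3. The authors deposited linear signals (array intensity) per probe set; the values themselves show a common scale, with a 2% trimmed mean of 150.016 to 150.026 on each array. How probes were summarised and background removed is not given in the sources used, and no detection calls were used. The number of arrays limits the precision. From these signals, log2(signal + 16) was fitted by lmFit and eBayes of limma 3.58.1 (R 4.3.3) with a mean for each of the 6 groups, which leaves 12 residual degrees of freedom. P-values were adjusted by Benjamini-Hochberg over 19775 genes, with a threshold of 0.05. The platform annotation gave the gene of each probe set (41097 name 1 gene, 1801 several, 11777 none). Of a gene's probe sets named for it alone, those ending in _x_at were dropped where another existed and the one with the highest mean was kept; no filter on low signal was applied. The comparisons were day 6 against ES, day 10 against day 6 with and without bFGF, day 17 against day 10 with and without bFGF, bFGF against none on each day, and the difference of these effects.

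Alternatives were pseudocounts of 1 and 64, quantile normalization, the upper 60% of genes, mean of probe sets, the pool number as a block, omission of pool 2 of the neuroepithelial groups, omission of each array, and each other probe set. The test script was run on simulated data first. The members and gene lists were chosen with earlier results of these data known. All 10 members and up to 3 called genes of each list were open to be named, with NANOG, LIN28A, PAX6, SOX1 and SIX3 as stage markers; profiles most like a member were ranked by Pearson r.

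Pool numbers come from the titles, except ES pool 1, numbered by sample order; 1 day 10 bFGF pool has the number 2 in the title, which was used, and 1 in the description. Deviations from group means were compared: same-number pairs correlated at 0.0749 to 0.693 (median 0.317) and different-number pairs at -0.577 to 0.265 (median -0.154). Deviations within a group sum to 0, so positive same-number values bring negative different-number ones, which are no separate evidence of pairing. The highest values, 0.606 to 0.693, were between neuroepithelial arrays of pool 2, which share raised low signals. The part of that array difference was not tested. In 6 of 8 comparisons every same-number pair exceeded 0.1. There the numbers may pair the arrays, which was read from these correlations and not from the labels. The main tests used no pairing, and the pool block was fitted only as an alternative setting. ES and day 6 pool 2 have no passage in common. In both day 10 comparisons with day 6, not every same-number pair exceeded 0.1.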

Additional observations from a re-analysis of the deposited data

Results flagged for a closer look

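PTCH1 at day 17 against day 10 stood apart because the pools of each arm moved opposite ways: all 3 bFGF pools of day 17 lay below all 3 of day 10, while all 3 untreated pools of day 17 lay above those of day 10. The signals were 585, 569 and 419 at day 17 with bFGF against 637, 758 and 681 at day 10, and 929, 904 and 898 at day 17 without bFGF against 779, 846 and 679 at day 10. The difference of these effects was tested and was -0.65 ± 0.29 on the log2(signal + 16) scale (limma, adjusted p = 1 over 19775 genes), so it did not pass.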

How the results depend on the processing

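Of the results on single genes, 9 reversed, all with another probe set of the same gene and none past the test: PTCH1 at day 6 against ES cells (-0.17), PTCH1 at day 10 against day 6 with bFGF (0.0245 and 0.16) and without it (0.10, 0.0572 and 0.14), GLI3 at that step with bFGF (-0.0346), GAS1 without bFGF (-0.18) and BOC at day 6 against ES cells (-0.12). With another probe set, 24 more results called with the used one kept their direction but did not pass. Averaging the probe sets left 3 of the 10 genes called at day 6, 2 at day 10 with bFGF and 2 without it, in place of 5, 4 and 5, and 9 genes of all in place of 17 for bFGF at day 10. A pseudocount of 1 called 1 member (HHIP) for untreated day 17 against day 10, and of all genes 226 in place of 393 for that step, 113 in place of 208 for it with bFGF, and 2 in place of 17 and 20 in place of 67 for bFGF at days 10 and 17. A pseudocount of 64 called 1 gene in place of 0 for the difference of the bFGF effects. Without pool 2 of the neuroepithelial groups, 106 genes were called at day 17 against day 10 with bFGF, 229 without it, and 4 for bFGF at day 10. Quantile normalization called GAS1 at day 10 with bFGF (0.74, adjusted p = 0.0459). GLI1 at that step was called with a pseudocount of 64 (-0.74, adjusted p = 0.0440) and without day 10 bFGF pool 1 (-1.73, adjusted p = 0.0493). The upper 60% filter kept 9 of the 10 genes and dropped SHH. The cause of these shifts was not tested.

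With the pool number as a block, taking the pairing as real, the genes called numbered 1454 in place of 762 (day 6 against ES cells), 446 in place of 208 and 754 in place of 393 (day 17 against day 10, with and without bFGF), 34 in place of 17 and 120 in place of 67 (bFGF at days 10 and 17), 1 in place of 0 (difference of effects) and 6059 in place of 3817 (any difference). For day 10 against day 6, where not every same-number pair exceeded 0.1, the block gave 2824 in place of 1394 with bFGF and 2512 in place of 1259 without it. Beyond CDON at day 6, GLI1 at day 10 without bFGF and HHIP averaged over both days, the block changed no call on the 10 genes.

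Leaving out each array in turn gave 4 to 5 members called at day 6, 4 to 5 at day 10 with bFGF, 3 to 5 without it, 0 in the 5 other comparisons and 8 by the F test. The genes called ran from 462 to 615 at day 6, 921 to 1068 and 842 to 1033 at day 10 with and without bFGF, 113 to 146 and 206 to 311 at day 17 with and without bFGF, 3 to 13 and 22 to 45 for bFGF at days 10 and 17, 0 to 1 for the difference and 3197 to 3888 by the F test.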

Other observations

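IHH and GAS1 show how the arrays of pool 2 differ. IHH, the Indian hedgehog ligand, had signals of 146, 137, 68.3 and 75.3 in pool 2 of the neuroepithelial groups (day 10 with bFGF, day 10 without, day 17 with bFGF, day 17 without), and between 3.396 and 31.9 in the 8 other neuroepithelial pools. The second GAS1 probe set went the other way: 17.4, 5.93, 4.56 and 6.81 in pool 2 of the same groups, and 84.3 to 212 in the other 8 pools. Both were noticed in the values after they had been seen. The ACTB ratio of 3' to 5' signal was highest in pool 2 of every group, while that of GAPDH was lowest in it. The part of these ratios in the values was not tested.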
